A study of Mus musculus with 16 samples.

Results

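Vascular smooth muscle cells with little renin were taken from single-cell libraries of mouse kidney as barcodes selected on the measured UMIs of 9 genes. A barcode is the tag that marks the RNA of 1 droplet, and a UMI is a counted RNA molecule. A barcode was kept when it had 200 to 7000 detected genes and at most 20% mitochondrial (mt-) UMIs. A kept barcode was a member when it had at least 1 UMI of Myh11, at least 6 UMIs of Acta2, Tagln, Myh11 and Myl9 together, Ren1 below 0.5% of its UMIs, and 0 UMIs of Pecam1, Ptprc, Cubn and Epcam, which mark endothelial, immune, proximal tubule and other epithelial cells. The rule found 1360 members among 53253 kept barcodes (2.55%) and 116439 barcodes in all (1.17%). Because these genes chose the members, their levels are descriptions and were not tested.

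The members came from 16 libraries, each of 1 mouse; 763 were from control and 597 from DN mice. Control mice were BTBR +/+, without the leptin mutation. DN mice were BTBR ob/ob, which lack working leptin in every cell, become obese and diabetic, and serve as a model of type 2 diabetes with early diabetic nephropathy (DN). By the study's methods both genotypes also carried a fluorescent reporter allele and a Cre transgene driven by a podocyte promoter, so these alleles do not separate the groups. Females and males of each genotype were taken at 6 weeks and at 12 weeks of age, with 2 libraries in each of the 8 groups. Both kidneys of a mouse were pooled after removal of the papilla, minced and digested with warm collagenase. The tissue was then spun on a Percoll gradient to deplete proximal tubule and digested with a cold-active protease. Dead cells were removed before loading.

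Vascular smooth muscle cells wrap the renal arteries and arterioles and set blood flow into the glomerulus by contracting. Contraction follows a rise in calcium, which acts through myosin light chain kinase (Mylk) on myosin II (Myh11, Myl9, Myl6) and smooth muscle actin (Acta2), while calponin (Cnn1), transgelin (Tagln), caldesmon (Cald1) and leiomodin (Lmod1) organise the filaments. In the kidney these cells share their lineage with the renin cells of the afferent arteriole, and smooth muscle cells of that vessel can regain renin production.

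Promoters of 2 genes of the rule and of 3 genes called in the comparison of genotypes were read to show which short elements they hold. They are the 250 bases before the transcription start in the RefSeq table of build GRCm38.p6, written 5′ to 3′ on the strand of the gene. Acta2 (smooth muscle actin) lies at chr19:34255374-34255623 on the minus strand, and Myl9 (myosin regulatory light chain) at chr2:156775214-156775463 on the plus strand. The calcium-binding proteins S100a6 and S100a11 lie at chr3:90612644-90612893 and chr3:93520246-93520495, and Akr1b7, an aldo-keto reductase found in renin-lineage cells, at chr6:34412112-34412361, all on the plus strand. Capitals mark a match to a searched motif on either strand.
Acta2: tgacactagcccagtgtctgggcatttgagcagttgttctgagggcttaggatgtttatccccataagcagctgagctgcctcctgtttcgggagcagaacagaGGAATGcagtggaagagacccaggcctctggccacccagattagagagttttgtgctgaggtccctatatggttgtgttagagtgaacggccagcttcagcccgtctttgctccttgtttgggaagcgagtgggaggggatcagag
Myl9: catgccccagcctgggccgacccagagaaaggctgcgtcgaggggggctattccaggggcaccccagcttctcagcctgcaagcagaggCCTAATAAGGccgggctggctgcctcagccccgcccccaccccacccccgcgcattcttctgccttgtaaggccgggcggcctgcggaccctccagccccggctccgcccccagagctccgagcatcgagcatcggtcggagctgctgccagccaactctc
S100a6: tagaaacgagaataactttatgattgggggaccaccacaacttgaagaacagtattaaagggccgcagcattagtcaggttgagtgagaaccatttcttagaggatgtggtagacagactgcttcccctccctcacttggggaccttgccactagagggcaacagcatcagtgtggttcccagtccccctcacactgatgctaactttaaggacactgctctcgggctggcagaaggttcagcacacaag
S100a11: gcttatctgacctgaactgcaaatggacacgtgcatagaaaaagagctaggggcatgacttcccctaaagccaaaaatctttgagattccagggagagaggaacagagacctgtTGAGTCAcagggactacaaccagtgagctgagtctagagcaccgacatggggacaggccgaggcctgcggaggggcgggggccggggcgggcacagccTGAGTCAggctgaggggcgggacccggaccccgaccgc
Akr1b7: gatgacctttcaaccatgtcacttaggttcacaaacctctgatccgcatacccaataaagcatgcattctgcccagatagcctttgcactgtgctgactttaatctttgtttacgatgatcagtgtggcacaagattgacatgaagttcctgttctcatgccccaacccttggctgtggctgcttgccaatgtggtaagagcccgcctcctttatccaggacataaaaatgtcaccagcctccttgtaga

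The motifs searched were the CArG box (the element bound by serum response factor), TGANTCA (that of AP-1 factors), CATTCC (TEAD factors) and TGACGTCA (CREB factors). They were searched on both strands, and a window could count for more than 1 of them. The CArG box was searched strictly as CCWWWWWWGG, with W for A or T. Stretches that differ from this pattern by 1 base were neither marked nor counted. Such stretches include ccctatatgg and ccttgtttgg in the Acta2 window and ccttgtaagg in the Myl9 window. The Myl9 window held a CArG box at -161 to -152 from the start, Acta2 a CATTCC match at -146 to -141, and S100a11 a TGANTCA match at -136 to -130 and another at -38 to -32. The windows of S100a6 and Akr1b7 held none of these letters, and the windows shown were chosen after the matches were seen. Among all 32851 RefSeq windows, 1.47% held the CArG box, 6.75% TGANTCA, 12.6% CATTCC and 1.55% TGACGTCA. Counted by gene, as in the sets that follow, these shares were 1.62%, 7.82%, 14.4% and 1.77% of 27025 genes. Among the 30 matched genes of the rule markers and the contractile list, 5 held the CArG box (Fhl1, Ldb3, Myl6, Myl9 and Vcl), 3 TGANTCA, 11 CATTCC and 2 TGACGTCA. Among 26 matched genes of the 38 that were higher in DN mice, these counts were 0, 7, 7 and 0, and among 19 matched of the 21 that were lower they were 0, 4, 4 and 1. A match is a run of letters, not evidence of binding.

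Members had a median of 6248.5 UMIs and 2500.5 detected genes, of which a median of 177.5 UMIs were of the 4 smooth muscle genes. Acta2 was detected in 98.2%, Tagln in 98.5% and Myl9 in 98.9% of members, which follows from the rule. The label was checked on markers outside the rule: Mustn1 was detected in 94.8%, Lmod1 in 82.6%, desmin (Des) in 71.0% and Cnn1 in 55.1%. In 4773 proximal tubule barcodes, which should lack these genes and were deeper (median 13654 UMIs), Mustn1 was found in 1.42%, Lmod1 in 3.10% and Cnn1 in 0.587%. Des does not set members apart from mesangial barcodes, which held more of it (671 ± 148 against 360 ± 90.6 CPM, n = 16 libraries). Itga8 and Ptn, the genes used to choose mesangial barcodes, were found in 48.5% and 12.1% of members and in 3.16% and 4.69% of proximal tubule barcodes. The visceral smooth muscle actin Actg2 was found in 2.87% of members. At the edge of the rule, 31 members had a sum of 6 to 8 UMIs, 18 of them in control male 12-week replicate 2, and 14 barcodes with a sum of 4 or 5 fell just outside. Near the renin limit, 17 members had 0.4% to 0.5% of UMIs from Ren1 and 20 barcodes had 0.5% to 0.6% and were left out.

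The libraries differed in depth. Whole libraries held 10510855 to 125551519 UMIs, and the 4 shallow libraries, replicate 1 of each female group, also shared barcodes with each other more often than with the other 12, so they are called the smaller barcode batch. Each library gave 29 to 204 members in control mice and 39 to 119 in DN mice. The median depth of members was 2293 to 8111 UMIs in control and 2308.5 to 9512.5 UMIs in DN libraries (median over libraries 5210 and 7681). No barcode was shared by members of different libraries. Of the members, 31 had 3 or more UMIs of the mesangial gene Ptn (pleiotrophin): 10 came from DN female 12-week replicate 2 and 5 from DN male 12-week replicate 1. In these libraries Ptn reached 705 and 585 CPM (a gene's UMIs scaled to 1000000 UMIs of the members of a library, the unit of every level given here), against 12.0 to 305 CPM in control libraries. Fits without such members, and without both libraries, were added after seeing the data.

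**Figure D1:**
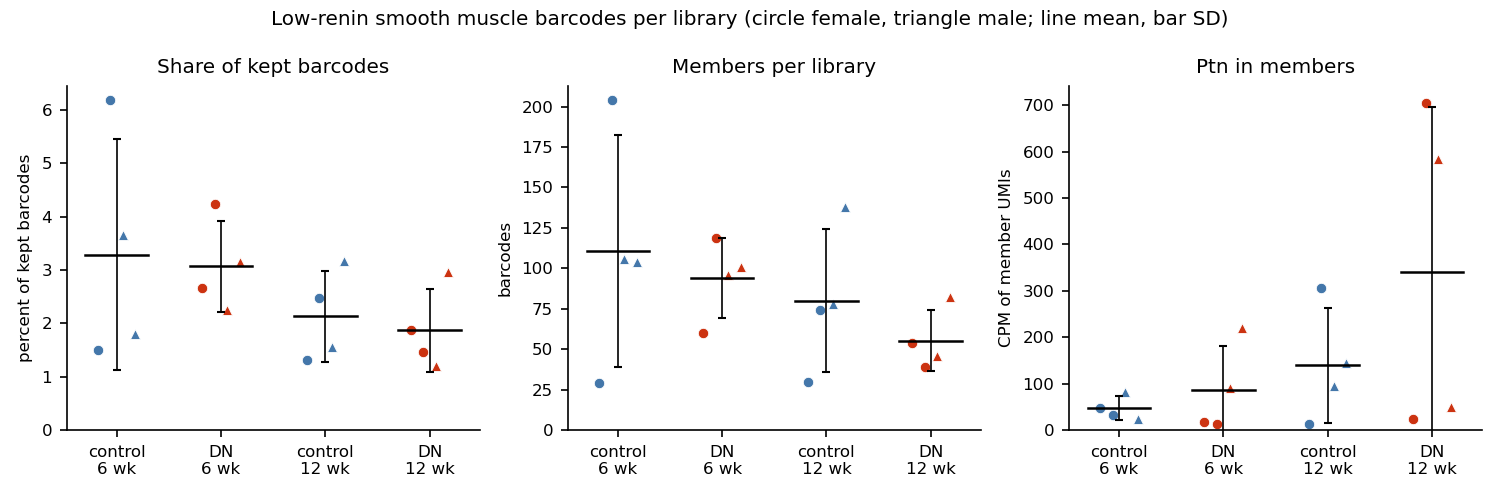
Share of members among kept barcodes (percent), number of members, and Ptn in members (CPM) for each library, with lines at the mean and bars of 1 SD in the 4 groups of genotype and age. Shares of DN and control libraries overlap at both ages, and 2 DN libraries at 12 weeks hold 705 and 585 CPM of Ptn.

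The share of members among kept barcodes did not separate the genotypes. It was 2.71% ± 1.64 (SD, n = 8) in control and 2.47% ± 0.992 (n = 8) in DN libraries, a difference of -0.238 percentage points (exact two-sided permutation test, p = 0.753). DN was the lower in 5 of 8 pairs of the same sex, age and replicate number (exact paired permutation test, p = 0.570). The labels do not state these pairs, which were taken from the expression data on weak evidence and also form the block used below. At 6 weeks the shares were 3.29% ± 2.16 and 3.07% ± 0.857 (n = 4 each, exact permutation p = 0.886), and at 12 weeks 2.13% ± 0.858 and 1.87% ± 0.775 (p = 0.686), where the smallest p this design allows is 0.0286. After every barcode was thinned to 1000 UMIs the means were 3.67% and 2.80% (exact permutation p = 0.386, n = 8 each).

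The smooth muscle genes of the rule had overlapping levels in both genotypes. Acta2 was at 12129 ± 2817 CPM in control and 11817 ± 3118 CPM in DN libraries, Tagln at 9071 ± 2932 and 8765 ± 2501 CPM, and Myl9 at 5908 ± 1343 and 5778 ± 1401 CPM (SD, n = 8 each). The lowest, median and highest library had 4321, 5797 and 7742 CPM of Myl9 in control mice and 4281, 5286 and 8244 CPM in DN mice, so the ranges overlapped nearly in full. Ren1, which the rule limits from above, ran from 241 to 389 CPM in control (mean 327 ± 50.6) and from 340 to 785 CPM in DN libraries (mean 558 ± 149). These are levels within a limited range, and 428 of the 1360 members had a UMI of Ren1.

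Gene expression was then compared between DN and control mice on the members' counts summed per library. Of 7974 genes tested, none of them a gene of the rule, 59 were called over the mean of both ages at an adjusted p below 0.05 (0.74%), 38 higher (0.477%) and 21 lower (0.263%) in DN mice. At 6 weeks 6 genes were called (0.0752%), 5 higher (0.0627%) and 1 lower (0.0125%), and at 12 weeks 24 (0.301%), 18 higher (0.226%) and 6 lower (0.0752%). With the pair of same sex, age and replicate number as a block, 370 genes were called over both ages (4.64%; 3.02% higher and 1.62% lower), 51 at 6 weeks (0.64%) and 315 at 12 weeks (3.95%), and all 59 genes were among the 370 with the same sign. Without the members with 3 or more UMIs of Ptn, 51 genes of 7766 were called (0.657%; 0.386% higher and 0.27% lower), 45 of them shared with the 59, and without both libraries of highest Ptn 25 of 8562 (0.292%; 0.21% higher and 0.0818% lower), 23 of them shared. S100a6 and Eno3 were called at both ages. Among members without a UMI of Ren1, neither was called at 6 weeks (1.39 and 2.32, adjusted p = 0.227 each), and at 12 weeks S100a6 was (1.64, adjusted p = 0.0119) and Eno3 was not (1.06, adjusted p = 0.594). Of the 59, 29 had more CPM in the other kept barcodes than in the members, as had 4064 of the 7974 genes tested (51%), and their source in the members was not tested.

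**Figure D2:**
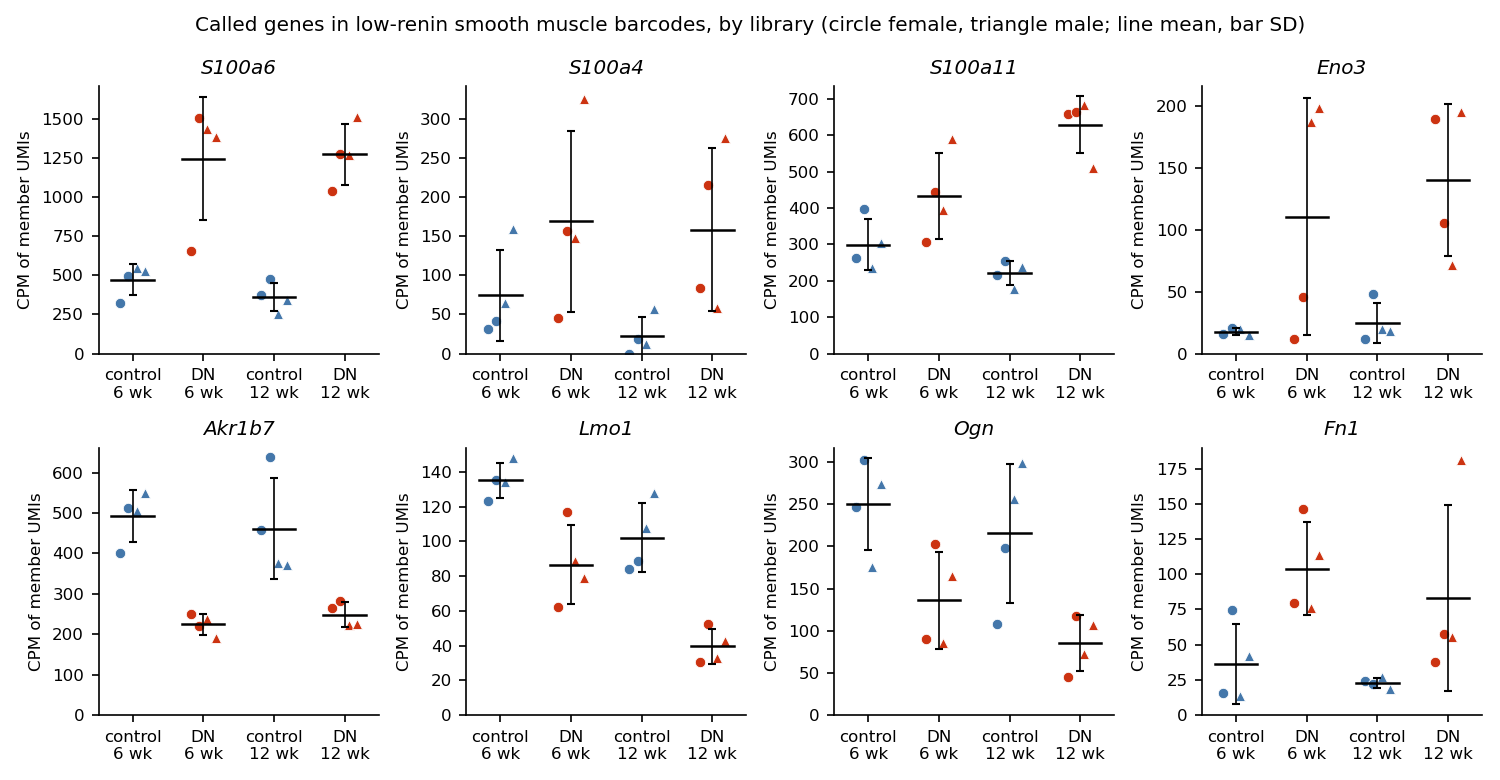
CPM of the members' UMIs in each library for 8 genes called over the mean of both ages, by genotype and age, with circles for females, triangles for males, a line at the mean and a bar of 1 SD. All DN libraries lie above all control libraries for S100a6 and below them for Akr1b7, while the groups overlap for Fn1.

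Among the 38 genes higher in DN mice were the calcium-binding proteins S100a6, S100a11 and S100a4. S100a6 rose from 417 ± 107 CPM in control to 1260 ± 289 CPM in DN libraries (SD, n = 8 each; log2 fold change 1.61 ± 0.18 SE, adjusted p = 7.69e-05). At 6 weeks it was at 325, 495, 544 and 529 CPM in the control libraries (female replicates 1 and 2, then male replicates 1 and 2) and at 658, 1507, 1433 and 1386 CPM in the DN libraries. At 12 weeks, in the same order, the control libraries had 373, 475, 254 and 344 CPM and the DN libraries 1038, 1273, 1271 and 1515 CPM. No control library reached the lowest DN library at either age, and S100a6 was higher in 8 of 8 pairs. The call held without each library in turn, with adjusted p from 8.73e-06 to 0.00117. S100a6 was detected in 80.4% of DN and 50.6% of control members, against 5.59% of proximal tubule barcodes. The gene lies on chromosome 3 at 90612882 to 90624181 (GRCm38, plus strand) and overlaps no other annotated gene.

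S100a11 rose from 261 ± 65.8 to 532 ± 140 CPM (log2 fold change 1.01 ± 0.16, adjusted p = 0.00329, higher in 8 of 8 pairs). Its 6-week levels were 263, 397, 236 and 303 CPM in control and 306, 445, 395 and 589 CPM in DN libraries, which overlapped, and its 12-week levels were 217, 255, 179 and 238 CPM against 659, 665, 683 and 511 CPM, which did not. S100a4, which marks motile and fibroblast-like cells, rose from 48.1 ± 50.2 to 164 ± 102 CPM (1.92 ± 0.36, adjusted p = 0.00661), with groups that overlapped. S100a4 shares its position and strand in part with Gm42674, and its call was lost among members without a UMI of Ren1 (1.44, adjusted p = 0.0530). S100a11, which mesangial barcodes hold at 1119.6 CPM, was not called among members without a UMI of Itga8 or Ptn (0.69, adjusted p = 0.229). Annexin A3 (Anxa3) rose from 78.9 ± 21.1 to 166 ± 30.1 CPM (0.99 ± 0.16, adjusted p = 0.00234). Myoferlin (Myof), a membrane repair protein, rose to 57.6 ± 16.7 CPM in DN libraries (1.29 ± 0.22, adjusted p = 0.00362), and its highest control library (31.4 CPM) was below its lowest DN library (38.1 CPM). Of the 59 called genes 7 had groups that did not overlap, against 0.113% of all genes tested.

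Fxyd5, Ackr3, Tpm4 and Eno3 were also among the higher genes. Fxyd5, a regulator of the sodium pump, rose from 28.3 ± 14.1 to 73.4 ± 23.1 CPM (1.40 ± 0.21, adjusted p = 0.00180). The chemokine scavenger Ackr3 rose from 25.7 ± 10.97 to 59.5 ± 13.95 CPM (1.38 ± 0.22, adjusted p = 0.00234). Tropomyosin 4 (Tpm4), a tropomyosin of non-muscle filaments, rose from 171 ± 49.3 to 343 ± 99.8 CPM (1.05 ± 0.17, adjusted p = 0.00349). Tpm4 is a mesangial gene too (853 CPM in mesangial barcodes), and at 12 weeks its call was lost without the members with 3 or more Ptn UMIs (0.96, adjusted p = 0.129). Muscle enolase (Eno3) rose from 21.1 ± 11.3 to 125 ± 76.2 CPM (2.40 ± 0.33, adjusted p = 0.000972, higher in 7 of 8 pairs). Eno3 levels at 6 weeks were 15.5, 20.98, 19.9 and 14.6 CPM in control and 11.3, 45.6, 187 and 198 CPM in DN libraries, so the female DN library of the smaller barcode batch lay below all control libraries.

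Trem2, a receptor known from myeloid cells, was found in small numbers: 6 UMIs in all control members and 109 in all DN members, and 7 of 8 DN libraries had some. It rose from 0.983 ± 0.903 to 17.6 ± 14.5 CPM (3.85 ± 0.58, adjusted p = 0.00120). No control library held over 2.09 CPM of Trem2. It passed the filter on low counts through DN libraries alone and so could only be called higher. Of the 10 immune markers, 7 were at 0 in DN members (Cd52, C1qa, C1qb, Lyz2, Cd3e, Nkg7 and S100a8) and Cd74, Tyrobp and Laptm5 were not. The list summed to 0 to 73.4 CPM in control and 0 to 159 CPM in DN libraries, the highest with 21 UMIs of Cd74, and the part of immune cell RNA in the Trem2 result was not tested. Trem2 was at 0.256 CPM in mesangial barcodes. Renin-high barcodes, defined below, had 13.1 ± 13.5 CPM of Trem2 in control and 74.1 ± 37.4 CPM in DN libraries (n = 8 each, with 1 control library of 7 such barcodes). Fabp4, a fatty acid-binding protein of adipocytes and endothelium, rose from 73.5 ± 62.0 to 311 ± 214 CPM (2.10 ± 0.38, adjusted p = 0.00590). The endothelial marker list summed to 91.2 to 154 CPM in control and 102 to 699 CPM in DN libraries, and the part of endothelial RNA in the Fabp4 result was not tested.

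Among the 21 genes lower in DN mice, Akr1b7 had the smallest p. It fell from 477 ± 93.4 to 236 ± 29.0 CPM (log2 fold change -1.01 ± 0.15, adjusted p = 0.00120, lower in 8 of 8 pairs). At 6 weeks its levels were 402, 513, 506 and 550 CPM in control and 250, 219, 237 and 191 CPM in DN libraries, and at 12 weeks 458, 640, 377 and 372 CPM against 265, 283, 222 and 224 CPM. The lowest control library stood above the highest DN library, and the call held without each library in turn (adjusted p 0.00108 to 0.00812). Akr1b7 was found in 60.9% of members and 0.608% of proximal tubule barcodes, and an annotated gene, Gm13857, overlaps it on the other strand.

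Akr1b7 marks the renin lineage, so its levels were split by the presence of Ren1 in the barcode, as a description. In members with a UMI of Ren1 it was at 904 ± 235 CPM in control and 346 ± 89.2 CPM in DN libraries, and in members without one at 336 ± 52.8 and 158 ± 57.7 CPM (SD, n = 8 each). Ren1 is a gene of the rule, and its detection moves with depth and genotype: it was found in 27.3% of control and 36.9% of DN members, and members with Ren1 had a median of 6632 UMIs in control and 8512 UMIs in DN mice, against 5770 and 5916 UMIs without it. The part of depth in the split was not tested. The renin limit left out 153 renin-high barcodes (defined below) in control and 209 in DN mice, beside 763 and 597 members. Renin-high barcodes held more Akr1b7 than members (1983 ± 745 against 350 ± 143 CPM, n = 15 libraries). The part of this unequal removal in the Akr1b7 result was not tested. In a fit on members without any UMI of Ren1, Akr1b7 remained called (-1.19, adjusted p = 0.00444). S100a6 went the same way in that fit (1.51, adjusted p = 0.000757), and its split levels were 285 and 461 CPM with and without Ren1 in control against 1148 and 1345 CPM in DN libraries. Eno3 was concentrated in members with Ren1, at 55.5 CPM in control and 232 CPM in DN libraries, against 10.7 and 48.8 CPM without it.

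Lmo1, Ogn and Ephb1 were also among the 21 lower genes. The LIM-only factor Lmo1 fell from 119 ± 23.0 to 63.1 ± 30.1 CPM (-0.98 ± 0.17, adjusted p = 0.00414, lower in 8 of 8 pairs). Its 12-week levels were 84.3, 88.7, 108 and 128 CPM in control and 30.3, 52.5, 32.7 and 42.8 CPM in DN libraries, with a gap between the groups. Osteoglycin (Ogn), a small proteoglycan of the vessel wall, fell from 233 ± 67.4 to 111 ± 51.1 CPM (-1.07 ± 0.21, adjusted p = 0.0106). At 6 weeks Ogn was at 247, 302, 176 and 275 CPM in control and 90.8, 203, 85.8 and 165 CPM in DN libraries, and at 12 weeks at 108, 198, 257 and 299 CPM against 45.4, 118, 71.9 and 107 CPM. The groups overlapped at both ages, though DN was the lower in 8 of 8 pairs. The Ogn call was lost without DN male 12-week replicate 1 or control female 12-week replicate 2 (highest adjusted p 0.0678). The ephrin receptor Ephb1 fell from 16.4 ± 7.66 to 1.89 ± 2.02 CPM (-2.73 ± 0.52, adjusted p = 0.00661) with no overlap, and its call was lost without control female 12-week replicate 2 (adjusted p = 0.0522). Ephb1 passed the filter on low counts through control libraries alone and so could only be called lower.

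Several of the lower genes are known from the tubule. Kap, an androgen-driven gene of the proximal tubule, fell from 782 ± 824 to 129 ± 193 CPM (-2.40 ± 0.44, adjusted p = 0.00661), with 1241 and 1724 CPM in the 6-week and 1083 and 1986 CPM in the 12-week male control libraries and at most 76.0 CPM in female control libraries. Acy3 fell from 47.8 ± 26.5 to 16.1 ± 7.61 CPM (-1.51 ± 0.23, adjusted p = 0.00158), Ugt2b38 by 2.19 (adjusted p = 0.00550) and Cyp4b1 by 2.80 on the log2 scale (adjusted p = 0.0106). Cyp4b1 was at most at 11.3 CPM in DN libraries. It passed the filter on low counts through control libraries alone and so could only be called lower. Ugt2b38 and Acy3 had too few DN libraries at the filter's level to pass without the control libraries. A lower call was therefore favoured over a higher one for both. Uromodulin (Umod), the main secreted protein of the thick ascending limb, fell from 65.4 ± 59.3 to 15.2 ± 5.94 CPM (-2.11 ± 0.43, adjusted p = 0.0172). Acy3, Cyp4b1, Egf, Kap, Tmem52b and Ugt2b38 were each over 5 times more abundant in the other kept barcodes. That cut was applied to the lower genes alone, and its share over all genes tested was not counted. Of the 21 lower genes 10 were more abundant in the other kept barcodes by any amount, against 51% of all genes tested. Kap had a UMI in 57.1% of members and 72.6% of proximal tubule barcodes, and Acy3 in 18.8% and 88.0%. The proximal tubule list (Kap called lower, median log2 fold change -0.70 over 8 genes tested) summed to 407 to 2850 CPM in control and 333 to 1926 CPM in DN libraries, and the distal list (Umod called lower, median -0.73 over 7) to 130 to 924 and 130 to 644 CPM. Whether free tubule RNA takes part in these results was not tested.

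No gene of the contractile apparatus was called over the mean of both ages. Of 31 genes 30 were tested and 0 were called by edgeR, with a median log2 fold change of 0.09 against 0.01 over all genes, and 28 of the 30 lay within 0.5 of 0. The most abundant members were Myl6 (8099 ± 814 CPM in control, 7782 ± 1008 CPM in DN libraries; -0.04 ± 0.14), Tpm2 (0.05 ± 0.19) and Cald1 (0.25 ± 0.16). Cnn1 was at 414 ± 102 and 522 ± 172 CPM (0.35 ± 0.21) and Mustn1 at 1813 ± 221 and 1756 ± 347 CPM (-0.03 ± 0.16). Of the regulators of this program, Myocd (-0.03 ± 0.28) and Srf (-0.11 ± 0.24) were not called, and neither was any of the 4 tested.

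**Figure D3:**
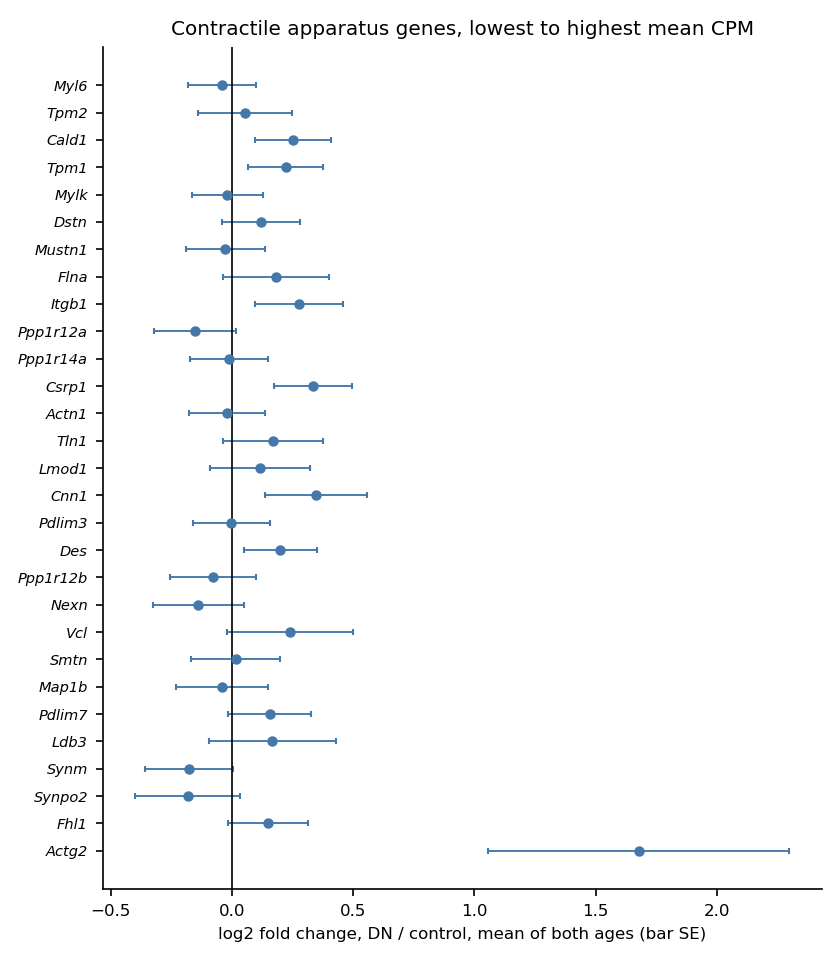
Log2 fold change of DN over control, mean of both ages, with bars of 1 SE, for 29 of the 30 tested genes of the contractile apparatus, ordered with the most abundant at the top. Of those shown, 28 lie within 0.5 of 0 and Actg2 (1.68) does not; 1 more gene beyond 0.5 is not shown, and none was called.

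Actg2 was the exception at 6 weeks. It was at 15.5, 8.68, 4.98 and 2.09 CPM in control and at 17.0, 39.3, 55.8 and 90.5 CPM in DN libraries (3.13 ± 0.55, adjusted p = 0.0332). All 4 DN libraries stood above all 4 control libraries, though the lowest DN library (17.0 CPM) was close to the highest control library. Actg2 passed the filter on low counts through DN libraries alone and so could only be called higher. At 12 weeks Actg2 was at 0 to 12.2 CPM in control and 0 to 10.1 CPM in DN libraries, and the difference between ages was not called by edgeR. The 6-week call rested on 18 control and 173 DN UMIs, was not made by DESeq2 (adjusted p = 0.103) and was lost without any of DN female replicate 2, DN male replicates 1 and 2, and control male replicates 1 and 2 of that age (highest adjusted p 0.466).

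Of 25 channel and calcium genes tested, 0 were called by edgeR (median 0.07). The inhibitor of the calcium pump, phospholamban (Pln), was at 1151 ± 145 CPM in control and 889 ± 277 CPM in DN libraries (-0.38 ± 0.18). With the block Pln was called lower (adjusted p = 0.00645). Of 31 vasoactive receptors and effectors tested the thrombin receptor F2r was called higher, and the median was -0.02. F2r rose from 63.1 ± 27.8 to 177 ± 142 CPM (1.37 ± 0.32, adjusted p = 0.0397), with 470 and 304 CPM in the libraries of highest Ptn. Mesangial barcodes held 996 CPM of F2r, and without the members with 3 or more Ptn UMIs its value was 0.47 (adjusted p = 0.670).

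With the block, 5 of 31 vasoactive genes tested were called higher and 1 lower, against 3.02% and 1.62% of all genes tested. Rgs5, a brake on G protein signaling typical of mural cells, was at 5546 ± 1802 CPM in control and 7792 ± 2522 CPM in DN libraries (0.50 ± 0.09 with the block, adjusted p = 0.00064; without it, adjusted p = 0.285). The endothelin receptor Ednrb was at 200 ± 63.5 and 297 ± 72.4 CPM (block 0.53 ± 0.11, adjusted p = 0.00143; without it, adjusted p = 0.274) and was higher in 8 of 8 pairs. The cGMP phosphodiesterase Pde5a (block adjusted p = 0.00218) and the angiotensin receptor Agtr1a (0.0466), which mesangial barcodes hold at 763 CPM, were the other higher genes beside F2r. Ramp1, a partner of the CGRP receptor, was the lower gene (block -0.43 ± 0.13, adjusted p = 0.0462). Agtr2 was at 0 in all 16 libraries. Of the renin-lineage list, 10 of 13 genes were tested and Akr1b7 alone was called, with a median of 0.10.

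Of 41 matrix genes tested, 5 were called higher (Fn1, Tnc, Col6a1, Lamb1 and Dcn) and 1 lower (Ogn), against 0.477% and 0.263% of all genes tested. The median log2 fold change was 0.50. Without the members with 3 or more Ptn UMIs, 2 were called higher (Fn1 and Col6a1) and 1 lower with a median of 0.32, while Tnc, Lamb1 and Dcn had too few counts to be tested. Without both libraries of highest Ptn 2 were called higher (Fn1 and Dcn) and 1 lower with a median of 0.42, and Tnc (3.70, adjusted p = 0.103), Col6a1 (0.96, 0.170) and Lamb1 (1.32, 0.623) were not called. With the block 21 were called higher and 1 lower, against 3.02% and 1.62% of all genes tested. Tnc and Dcn had 3 control UMIs each, and Lamb1 was at most at 16.6 CPM in control libraries. Tnc, Dcn and Lamb1 passed the filter on low counts through the DN libraries and so could only be higher. The list was drawn up with earlier results of these data known, so its median is not independent support for a direction.

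Fibronectin (Fn1), a cell-adhesive matrix protein, rose from 29.6 ± 20.2 to 93.6 ± 49.7 CPM (1.69 ± 0.29, adjusted p = 0.00414, higher in 8 of 8 pairs). At 6 weeks Fn1 was at 15.5, 74.5, 13.3 and 41.8 CPM in control and 79.4, 147, 76.3 and 114 CPM in DN libraries, and at 12 weeks at 24.1, 22.2, 26.9 and 18.5 CPM against 37.9, 57.5, 55.5 and 181 CPM. Within each age every DN library stood above every control library. Mesangial barcodes held 5.90 CPM of Fn1. The Fn1 call was lost among members without a UMI of Ren1 (1.19, adjusted p = 0.162). Col6a1, a chain of the microfibrillar collagen VI, rose from 20.4 ± 7.56 to 43.1 ± 19.2 CPM (0.99 ± 0.22, adjusted p = 0.0268), but was called in 8 of the 16 fits that left out a library. Lamb1, a laminin chain of basement membranes, was called in 5 of 16 such fits and tenascin-C (Tnc), with 3 control and 51 DN UMIs, in 3 of 16.

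Decorin (Dcn), a proteoglycan of adventitial fibroblasts, was uneven. At 6 weeks it had 0 UMIs in all 4 control libraries and 159 in DN libraries, 160 CPM in male replicate 2 and 12.3 CPM in male replicate 1 with 0 in both females. The call at 6 weeks rests on 1 library: without DN male 6-week replicate 2 it was lost (adjusted p = 1.00), and DESeq2 did not make it with all libraries (adjusted p = 1). The fibroblast and pericyte list summed to 157 to 442 CPM in control and 212 to 700 CPM in DN libraries, and Lum, Dpt and Clec3b were at 0 in control members. DN male 6-week replicate 2, with 150 of the 159 UMIs of Dcn, also held 58 UMIs of Col14a1, 40 of Fbln1, 26 of Lum, 23 of Mfap5 and 10 of Clec3b, against 0 to 3 of each in the other 6-week libraries. The part of fibroblast RNA in the Dcn value was not tested. The most abundant matrix genes, Sparcl1 (0.13 ± 0.15), Sparc (0.51 ± 0.17) and Bgn (0.27 ± 0.17), were not called, and Sparc was called higher with the block (adjusted p = 0.00126), as were the basement membrane chains Col4a1 (0.72, adjusted p = 7.97e-06) and Col4a2 (0.69, adjusted p = 0.000239). Without the block Col4a1 was at 0.68 ± 0.28 (adjusted p = 0.444) and Col4a2 at 0.64 ± 0.25 (adjusted p = 0.412). Mesangial barcodes held 2562 CPM of Col4a1 and 1551 CPM of Col4a2, against 466.1 and 286 CPM in control members, and in the fit without the block that left out the members with 3 or more Ptn UMIs the values were 0.30 and 0.31. The block was not run without those members.

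The list of phenotypic modulation and inflammation, genes that smooth muscle cells gain when they leave the contractile state, had 24 genes tested. S100a4 and S100a6 were called higher and 0 lower, with a median of 0.42, which became 0.19 without the members with 3 or more Ptn UMIs and 0.21 without both libraries. Ly6c1 and Vcam1 of this list passed the filter on low counts through DN libraries alone and so could only be higher. The median with all members is drawn upward by such genes. Vimentin (Vim) was at 1835 ± 737 and 2328 ± 908 CPM (0.34 ± 0.24) and galectin 1 (Lgals1) at 1104 ± 561 and 1518 ± 672 CPM (0.54 ± 0.23). Vim and Lgals1 were called higher with the block (adjusted p = 0.0247 and 0.00135), where 8 genes of the list were called, against 4.64% of all genes tested. Of 5 calcification genes tested, 0 were called by edgeR, and the calcification inhibitor Mgp was at 1487 ± 739 and 1554 ± 527 CPM (0.13 ± 0.20).

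Of 23 insulin, IGF and glucose genes tested, Fabp4 was called higher and 0 lower (median 0.19). The IGF-binding protein Igfbp7 was at 3442 ± 756 CPM in control and 4718 ± 1312 CPM in DN libraries (0.45 ± 0.17) and was called higher with the block (adjusted p = 0.000351). Gapdh (0.23 ± 0.19) and Igfbp5 (0.26 ± 0.22) were not called in either fit. Of 22 immediate-early and heat shock genes, which cell dissociation can induce, Fosb (-0.92 ± 0.21, adjusted p = 0.0381) and Hspa1a (-1.21 ± 0.26, adjusted p = 0.0274) were called lower, with a median of -0.42. Hspa1a has a near-identical copy, Hspa1b, and its reads may be split. Without the members with 3 or more Ptn UMIs Fosb was not called (adjusted p = 0.0565), and Fosb was called in 5 and Hspa1a in 10 of the 16 fits without a library. With the block 10 were called lower and 3 higher, against 1.62% and 3.02% of all genes tested. Fos (adjusted p = 0.000202), Jun (0.000382) and Jund (0.0157) were among the lower.

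Marker lists of other cell types were read as measured levels. The mesangial list had 8 genes tested and 0 called by edgeR, with a median of 0.51, which was -0.03 without the members with 3 or more Ptn UMIs and -0.15 without both libraries. It summed to 1505 to 2296 CPM in control and 1462 to 5049 CPM in DN libraries, and to at most 2692 CPM in DN libraries other than those 2. With the block Adamts5 (adjusted p = 1.53e-05) and Serpine2 (0.00201) were called higher. The endothelial list had a median of 1.17 over 4 of its 12 genes, which was 0.50 without the Ptn-bearing members. Egfl7 of this list and Nt5e of the mesangial list passed the filter on low counts through DN libraries alone and so could only be higher. Sox17 of the endothelial list also needed its DN libraries to pass. The medians with all members are drawn upward by this choice of genes. Podocyte, immune, red cell and dividing cell lists had 0 calls over 4, 1, 1 and 1 genes tested. Red cell RNA stood out in control male 6-week replicate 1, where Hbb-bs was at 3077 CPM against at most 22.9 CPM elsewhere.

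At 12 weeks 18 genes were called higher. S100a6 (1.81 ± 0.26, adjusted p = 0.00404), S100a11 (1.46 ± 0.24, 0.0107), the adhesion receptor Adgre5 (1.94 ± 0.32, 0.0107), Anxa2 (1.32 ± 0.23, 0.0184), Anxa3 (1.29 ± 0.23, 0.0184) and Fxyd5 (1.65 ± 0.31, 0.0271) had the smallest p. Adgre5, with 26 control and 97 DN UMIs at this age, would not have passed the filter on low counts without the DN libraries. A higher call was therefore favoured for it. Of the 24 called, 19 had groups that did not overlap, against 3.74% of all genes tested. Lower genes were Bex4 (-1.70 ± 0.31, 0.0240), Lmo1 (-1.37 ± 0.26, 0.0271), Acy3 (-1.69 ± 0.35), Armc3 (-2.17 ± 0.45, 0.0393 each), Pon3 (-1.50 ± 0.32, 0.0406) and Umod (-3.05 ± 0.67, 0.0465). Acy3 and Armc3 would not have passed the filter on low counts without the control libraries, which favoured a lower call. These calls rest on few libraries: 0 genes were called without control male 12-week replicate 2 and 70 without DN male 12-week replicate 2, and S100a6 was called in 15 of 16 fits without a library (adjusted p = 0.0585 without control male 12-week replicate 2). Umod was called in 5 of 16 such fits, and its groups overlapped. Of its 162 control UMIs at this age, 130 were in control male 12-week replicate 2. Without the members with 3 or more Ptn UMIs, 16 of the 24 genes were called, and the 8 that were not included Lmo1 (-1.22, adjusted p = 0.0514), Acy3 (-1.71) and Armc3 (-1.98, 0.0520 each), Myof (1.24, 0.221) and Apoe (1.44, 0.401; 2.03 with all members). Without both libraries of highest Ptn, which leaves 2 DN libraries at 12 weeks, S100a6 (1.90) and Eno3 (2.90, adjusted p = 0.0265 each) were the 2 genes called (0.0234%). The other 22 had the same sign as with all libraries, some at like values, such as S100a11 (1.42, adjusted p = 0.0974), Anxa3 (1.41, 0.0911), S100a4 (2.78, 0.0895) and Lmo1 (-1.45, 0.245), and Apoe at 1.00 (adjusted p = 1.00).

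At 6 weeks S100a6 (1.41 ± 0.25, adjusted p = 0.0332), Trem2 (3.93 ± 0.72, 0.0332), Eno3 (2.46 ± 0.46, 0.0373), Actg2 and Dcn rose and Akr1b7 (-1.13 ± 0.21, 0.0332) fell, and 4 of the 6 had groups that did not overlap, against 2.19% of all genes tested. Of these, Trem2, Actg2 and Dcn passed the filter on low counts through DN libraries alone and so could only be called higher. No gene was called without DN female 6-week replicate 2, DN male 6-week replicate 2 or control male 6-week replicate 1. Whether the DN effect differed between the ages was tested by the interaction, with 0 genes called by edgeR or DESeq2 and 175 of 7974 at an unadjusted p below 0.05; with the block 2 were called (0.0251%). Age itself gave 0 calls by edgeR in control mice (121 at an unadjusted p below 0.05; 0 by DESeq2) and 0 in DN mice (354; 1 by DESeq2, 0.0125%). With the same sex and replicate number as a block the counts were 3 (0.0376%) and 6 (0.0752%).

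The members were set beside the 2 most alike kinds of barcode. Mesangial barcodes had at least 1 UMI of Itga8 and of Ptn, 0 of Myh11 and the same limits otherwise (3543 barcodes in 16 libraries), and renin-high barcodes met the rule but for Ren1 at 0.5% of UMIs or more (355 barcodes in 15 libraries with at least 10). Since the rules for these kinds share genes with the values, what follows is description. Of 7744 genes, 61.3% differed between members and mesangial barcodes, and of 4456 genes 11.3% between members and renin-high barcodes.

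Against mesangial barcodes the members were high in contractile and calcium genes. Cnn1 was at 468 ± 147 CPM against 0.0256 CPM (log2 difference 11.47 ± 0.16), Rergl, a Ras-like gene of vascular muscle, at 556 ± 173 against 0.299 CPM (10.85 ± 0.16), and Pln at 1020 ± 253 against 1.39 CPM (9.89 ± 0.20). Asporin (Aspn, 10.19 ± 0.17), Pdlim3 (10.04 ± 0.19) and the olfactory receptor Olfr558 (9.96 ± 0.31) had differences of like size. Mesangial barcodes were higher in Cxcl13 (-5.18 ± 0.30), Mrc1 (-5.17 ± 0.35), the ectonucleotidase Nt5e (-4.91 ± 0.31) and the angiopoietin receptor Tek (-4.76 ± 0.28). Des (-0.64 ± 0.09), Agtr1a (-2.21 ± 0.09) and Gata3 (-2.42 ± 0.13), chosen after their values were seen, were also higher in mesangial barcodes.

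Renin-high barcodes were chosen by the same smooth muscle genes. Lmod1 was at 557 ± 142 CPM in members and 524 ± 111 CPM in renin-high barcodes (-0.01 ± 0.08) and Cnn1 at 473 ± 151 and 522 ± 253 CPM (-0.24 ± 0.15), both genes chosen after their values were seen. Members were higher in Ogn (176 ± 86.7 against 44.7 ± 30.1 CPM; 1.81 ± 0.19), Inpp4b (1.80 ± 0.14), Pde5a (1.41 ± 0.13) and elastin (Eln, 1.23 ± 0.18). They were lower in Akr1b7 (350 ± 143 against 1983 ± 745 CPM; -2.61 ± 0.13), Fam46a (-2.22 ± 0.10), Mapt (-2.04 ± 0.15), Eno3 (-1.96 ± 0.18), Col13a1 (-1.93 ± 0.15) and the lysosomal protease Ctsb (-1.39 ± 0.13). The 2 kinds of barcode showed S100a6 in the same order: renin-high barcodes had 365 ± 234 CPM in control (0 to 682) and 1470 ± 421 CPM in DN libraries (797 to 1899; n = 8 each). The 0 was in the control library with 7 such barcodes, and the lowest of the 15 libraries with at least 10 held 217 CPM.

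**Figure D4:**
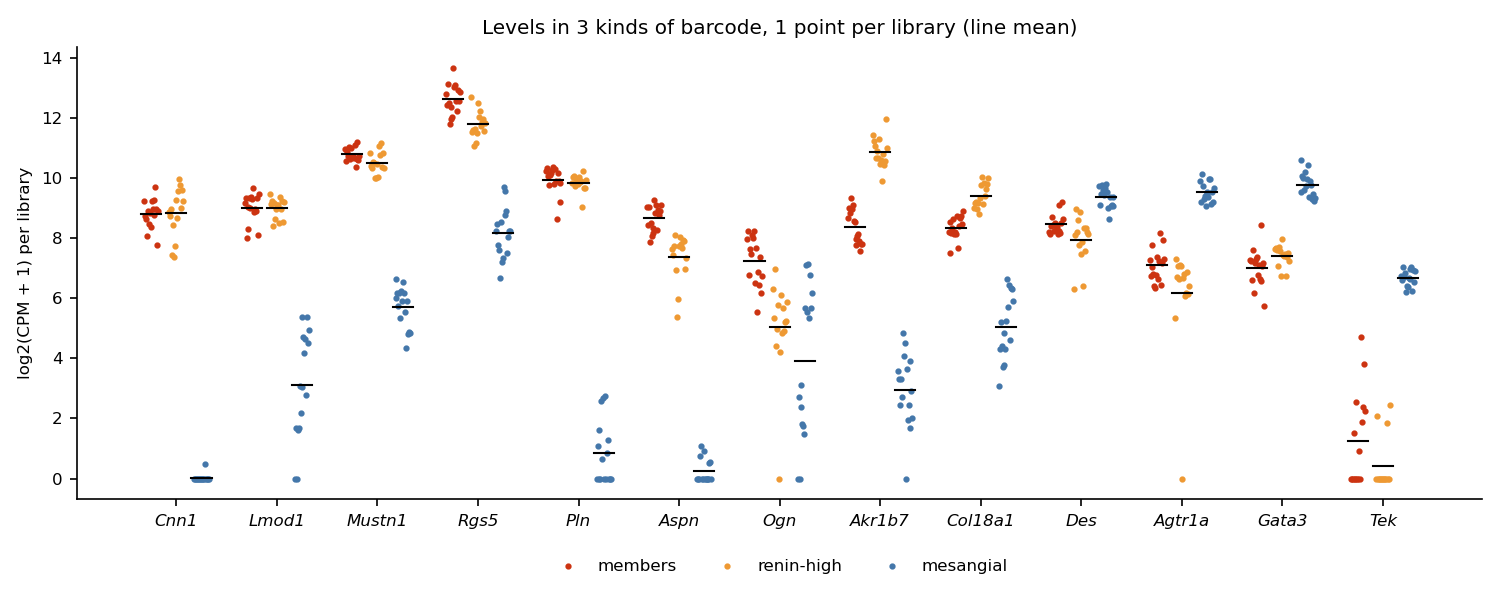
Level on a log2(CPM + 1) scale of 13 genes in members, renin-high and mesangial barcodes, 1 point per library with a line at the mean. Cnn1, Pln and Aspn are near 0 in mesangial barcodes, Akr1b7 and Col18a1 are highest in renin-high barcodes, and Tek is high in mesangial barcodes alone.

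The DN effect in the members was compared with that in mesangial barcodes of the same libraries, a test added after seeing the data. In mesangial barcodes alone 4.93% of 9592 genes were called. Of 7600 genes 210 differed (2.76%), 92 with a higher (1.21%) and 118 with a lower effect (1.55%) in members. Ogn had opposite signs: it fell in members (-1.07) and rose in mesangial barcodes (4.43 ± 0.38), a difference of -5.51 ± 0.25 (adjusted p = 9.31e-15). S100a6 rose in both, by 1.61 in members and by 1.01 ± 0.16 in mesangial barcodes (difference 0.61 ± 0.15, adjusted p = 0.0217). Fxyd5 rose in members, with a mesangial value of -0.20 (difference 1.44 ± 0.21, adjusted p = 7.91e-05). The effect on Fosb was lower in members than in mesangial barcodes (0.91; difference -1.72 ± 0.44, adjusted p = 0.0244), and so was that on Umod (-0.77; difference -1.35 ± 0.31, adjusted p = 0.0132). Levels in mesangial barcodes were low for Fosb, at 5.64 ± 6.34 CPM in control and 10.7 ± 6.11 CPM in DN libraries. Ogn was at 3.02 ± 2.69 CPM in control and 80.2 ± 41.9 CPM in DN mesangial barcodes. Of genes outside the naming rule and chosen after their values were seen, Errfi1, an inhibitor of EGF receptor signaling, had a difference of -1.76 (adjusted p = 0.000558) and Apoe 1.79 (adjusted p = 0.00670). Mesangial barcodes held 719 ± 220 CPM of Apoe in control libraries, against 21.9 ± 9.20 CPM in control members. The Apoe difference was 1.58 without the members with 3 or more Ptn UMIs. At 12 weeks the rise of Apoe in members went from 2.03 to 1.00 without both libraries of highest Ptn. The part of mesangial RNA in it was not tested.

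**Figure D5:**
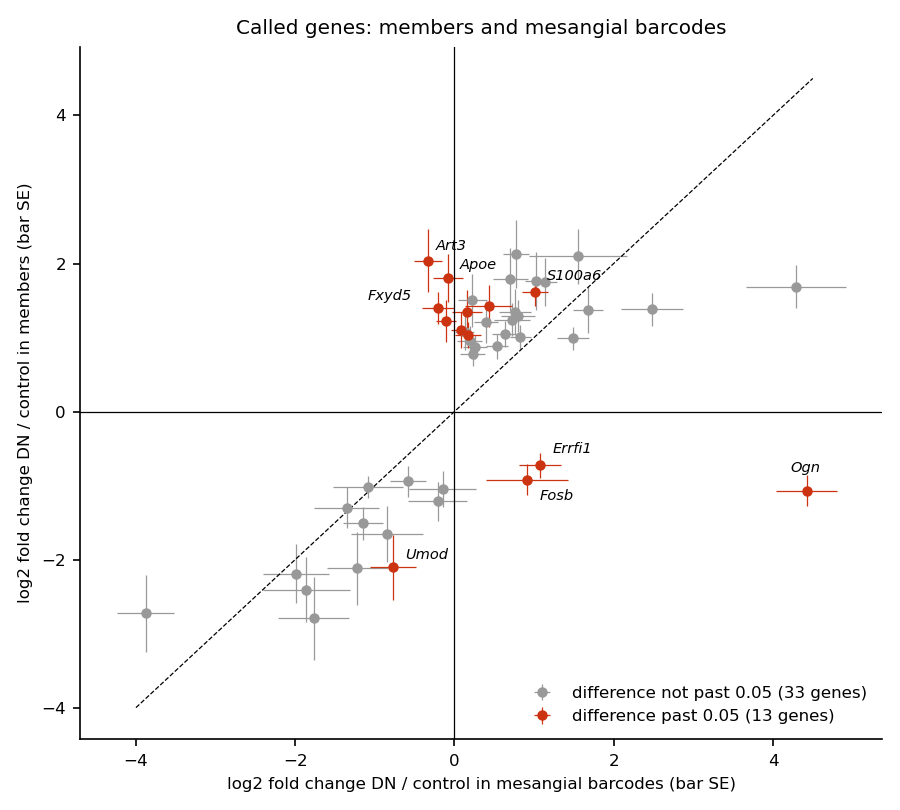
Log2 fold change of DN over control in members against that in mesangial barcodes for 46 of the 59 called genes, those tested in both kinds other than Dcn, with bars of 1 SE and a dashed line of equal effect. Ogn lies at 4.43 on the mesangial and -1.07 on the members' axis, and the difference was called for 13 genes and not for 33.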

How the data were processed

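The authors deposited, for each of the 16 libraries, a matrix of raw UMI counts per gene and barcode, made with Cell Ranger 3.0.2 on mm10 per the labels and the study's methods. They are whole counts that were not normalized. The rule was applied to every library and members' counts were summed per library, giving 16 sums, so mice and not cells are the replicates. Members, gene lists and alternatives were chosen with earlier results of these data known. Doublets were treated by the rule's 0-UMI genes alone, with stricter limits as alternatives.

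Sums (libraries with at least 10 members) were tested with edgeR 4.0.16 in R 4.3.3 (quasi-likelihood test, TMM factors, filterByExpr with a minimum count of 10, Benjamini-Hochberg adjusted p below 0.05) in a single fit of all libraries with age, sex within age and genotype within age. SE was the log2 fold change before shrinkage over the root of F. The log2 fold changes printed are those after shrinkage, which differ most for genes with few counts. Shares were compared by exact permutation (scipy 1.17.1). CPM are scaled to 1000000 of the members' summed UMIs; SD are over libraries, and precision is limited by 29 to 204 members per library. DESeq2 1.42.0, other limits of the rule, the barcode batch and each library left out were alternatives.

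Replicate numbers were taken to pair samples because same-numbered libraries deviated together from their group means in every stratum. With 2 libraries per group the deviations mirror each other, and swapping the numbers in a group would only turn the sign of r. Each r is therefore weak evidence for a pair. The pairing was also read from the same expression data that the blocked fits test, so calls made with the block alone are less certain. The r over 3246 genes was 0.599, 0.569, 0.458 and 0.292 between genotypes and 0.467, 0.574, 0.469 and 0.163 between ages, females first. The labels do not state such pairs. Replicate 1 of every female group is the smaller barcode batch, so in females the pairs and that batch cannot be told apart. Blocked values stand beside results they change.

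In each genotype or age comparison the text names all called genes if at most 20, otherwise the 10 of each direction with the smallest p, from every list the called members and the 3 of highest CPM, and between kinds of barcode the 10 of each direction with the largest difference of the same sign in every library and at least 50 CPM; other genes, the detected shares of markers included, were chosen after their values were seen. Some genes that this rule names are not reported here. The fits were tested on simulated data: over the mean of both ages, 72.0% of genes changed by a log2 fold of 1 and 98.9% of those changed by 2 were recovered among 7614 genes, with 6 false of 166 calls. The simulated libraries were independent and shared the same mean profile, without effects of sex, age, barcode batch or replicate pair. These rates therefore need not hold in the real libraries. Positions are from GENCODE M21 (GRCm38), which held 30934 of 31053 features. Whether counting used the strand is not given in the sources used here, so genes with overlapping partners are uncertain: of those named, S100a4, Akr1b7, Lmo1, Ogn, Fn1, Tnc, Umod, Hspa1a and Ephb1 have one.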

Additional observations from a re-analysis of the deposited data

Results flagged for a closer look

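In groups of 4 libraries of the same genotype and age, a library was marked when its gap to the nearest of the others was large for the range of the group; chance marks about 1 in 20 groups, and 14 of 144 (9.72%) were marked here, 4 of them by DN male 12-week replicate 2 and 3 by DN male 6-week replicate 2. In DN male 12-week replicate 2, Fn1 was at 181 CPM (others 37.9 to 57.5), Kap at 508 CPM (others 0 to 71.9), Ugt2b38 at 8.82 CPM (others 0) and S100a11 at 511 CPM (others 659 to 683). In DN male 6-week replicate 2, Dcn was at 160 CPM (others 0 to 12.3), Kap at 359 CPM (others 0 to 47.7) and Lamb1 at 28.8 CPM (others 9.53 to 12.5). In DN female 6-week replicate 1, of the smaller barcode batch, S100a6 was at 658 CPM (others 1386 to 1507) and Hspa1a at 62.4 CPM (others 50.4 to 51.1). Cldn15 was at 30.0 CPM in DN male 6-week replicate 1 (others 15.98 to 17.9) and Pon3 at 52.8 CPM in DN female 6-week replicate 2 (others 28.4 to 32.0). Among control libraries, Tpm4 was at 289 CPM in female 12-week replicate 1 (others 139 to 157), and Tnc at 2.09 CPM in male 6-week replicate 2 and 2.45 CPM in male 12-week replicate 1 with 0 in the others.

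The DN effect differed between members and mesangial barcodes, by the interaction test, for Ogn (-5.51), Fosb (-1.72), Fxyd5 (1.44), Umod (-1.35) and S100a6 (0.61 on the log2 scale). In control mesangial barcodes Ogn and Fosb were low, at 3.02 and 5.64 CPM.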

How the results depend on the processing

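Among the called genes followed through the settings (6 at 6 weeks, 19 at 12 weeks and 29 over both ages), 0 values changed sign; genes named without a call were not followed in this way. Counts of calls moved by over 1.5 times in these settings, and the cause was not tested where fewer genes, libraries or members do not account for it. Over both ages (59 calls) the count was 176 with the barcode batch as a term, 106 in the larger batch only, 25 without both libraries of highest Ptn, 130 without members with Ren1, 10 without members with Itga8 or Ptn, 15 without members with a UMI of 6 tubule and endothelial genes, 246 without the filter and 370 with the pairs as a block. At 12 weeks (24 calls) these were 110, 72, 2, 59, 0, 3, 200 and 315, with 39 by DESeq2. At 6 weeks (6 calls) they were 11 with the batch term, 3 without both libraries, 0 without Ren1, 0 without Itga8 or Ptn, 1 without the 6 genes, 50 without the filter, 51 with the block and 3 by DESeq2. Setting members apart by Itga8 or Ptn left 4459 genes to test, by the 6 genes 4247 and by Ren1 6388, while no filter gave 16772. S100a6 was called over both ages in every one of these settings, and so was Eno3 except among members without Itga8 or Ptn, where it was not tested.

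Leaving out a library gave 31 (without DN male 6-week replicate 2) to 105 calls (without DN female 12-week replicate 1) over both ages. It gave 33 without DN female 12-week replicate 2, 91 without DN male 12-week replicate 2, and 35 without DN male 12-week replicate 1, control female 12-week replicate 2, control male 12-week replicate 2 or control male 6-week replicate 2. At 12 weeks it gave 0 to 70: 0 without control male 12-week replicate 2, 1 without control female 12-week replicate 2, 3 without control male 12-week replicate 1, 6 without DN female 12-week replicate 2, 8 without DN male 12-week replicate 1, 14 without control female 6-week replicate 2, 15 without control female 12-week replicate 1, 68 without DN female 12-week replicate 1 and 70 without DN male 12-week replicate 2. At 6 weeks it gave 0 to 6: 1 without DN male 6-week replicate 1, control male 6-week replicate 2 or control male 12-week replicate 2, 2 without control male 12-week replicate 1, 3 without control female 6-week replicate 1, and 0 without DN female 6-week replicate 2, DN male 6-week replicate 2 or control male 6-week replicate 1.

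For the difference between the ages (0 calls) the counts were 6 without the filter and 2 with the block, and 0 without any library. For age in control mice (0) they were 1 with the batch term, 21 without the filter and 3 with the block (0 to 1 without a library). In DN mice (0) they were 1 by DESeq2, with the batch term, without Ren1, with smooth muscle genes at 1% of UMIs or at 20 UMIs and under 3 UMIs of Ptn, 89 without the filter, 6 with the block and 0 to 30 without a library (30 without DN male 12-week replicate 2). Members differed from renin-high barcodes in 502 genes, 872 without the filter and 240 without the library block.

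The difference in share reversed without members with Itga8 or Ptn (0.0793 percentage points; 0.126 at 6 weeks, 0.0326 at 12 weeks) and, at 6 weeks, with up to 50% mt- UMIs in the denominator (0.0438). Without a library it was -0.490 to 0.260 (6 weeks -0.812 to 0.753, 12 weeks -0.623 to 0.0874), reversing without control female 6-week replicate 2 (0.260; 0.753 at 6 weeks), DN male 6-week replicate 1 (0.0585) or control male 12-week replicate 2 (0.0874). The lower depth of the smaller batch limits low genes such as Trem2, Tnc and Dcn.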
